A study of Mus musculus with 2 samples.

Results

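Dense clusters of distal accessible sites were examined in lung tissue of male B6CASTF1/J mice, a hybrid strain, at 14 days of age. Chromatin was profiled by DNase-seq, in which nuclei are exposed to DNase I and the cleaved ends, which fall mostly in open DNA, are sequenced. There was 1 group with 2 libraries: the label of replicate 1 gives males without a pool, and that of replicate 2 gives 3 males. Both libraries carry the same donor record, so the spread between them may be partly technical, and no comparison between conditions was possible.

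A cluster was built in 3 steps. Autosomal peaks more than 1 kb from every annotated transcript 5′ end were kept in each library, and those that overlapped a peak of the other library were merged into 42618 shared distal peaks. Peaks with no more than 5 kb between them were then joined into 32945 chains, and a chain of 5 or more peaks was a dense cluster. There were 196 dense clusters, which held 1109 shared distal peaks, or 2.6% of all of them. Chains of 2 to 4 held 15511 peaks in 6751 chains, and 25998 peaks stood alone. The clusters were chosen by the peak positions in both libraries, so the number and spacing of their peaks, and the scores of those peaks, are descriptions.

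A distal accessible site is typically an enhancer, an insulator or an unannotated start site, kept open by bound transcription factors. Enhancers of genes that must be set precisely or strongly, such as regulators of cell identity and genes that answer to signals, often lie in groups. CTCF binds insulators and separates neighbouring regulatory domains, whereas SP and KLF factors bind GC-rich DNA near start sites. A tRNA gene has its promoter within the gene: the B box, in the 3′ part, is bound by TFIIIC, which brings in RNA polymerase III.

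The strongest peaks of 6 clusters show the sequence range of these regions. They were taken from clusters with many peaks, high scores or many footprints, the short protected stretches within a peak. All are on the plus strand of mm10, and capitals mark matches anywhere in the peak, on either strand, to the 20 consensus motifs that were searched. Unless stated, the motif shares given further on count only matches within 75 bases of the peak centre. Sequences are from RefSeq, build GRCm38.p6.
Kdm6b: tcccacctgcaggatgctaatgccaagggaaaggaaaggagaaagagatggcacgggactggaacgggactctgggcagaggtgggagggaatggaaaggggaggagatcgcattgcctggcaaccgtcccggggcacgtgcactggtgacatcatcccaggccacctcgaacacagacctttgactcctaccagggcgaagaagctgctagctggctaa
Id2: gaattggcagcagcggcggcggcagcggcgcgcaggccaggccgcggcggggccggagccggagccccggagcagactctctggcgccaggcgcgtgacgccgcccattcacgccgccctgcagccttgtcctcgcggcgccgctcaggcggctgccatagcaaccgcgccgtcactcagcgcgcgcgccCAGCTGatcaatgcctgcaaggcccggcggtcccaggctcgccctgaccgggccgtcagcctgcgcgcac
Ptma: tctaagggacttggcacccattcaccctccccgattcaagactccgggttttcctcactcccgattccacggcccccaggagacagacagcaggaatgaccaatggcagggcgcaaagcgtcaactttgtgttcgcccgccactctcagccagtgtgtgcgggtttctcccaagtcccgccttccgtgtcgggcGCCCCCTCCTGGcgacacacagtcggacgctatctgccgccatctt
Tex44: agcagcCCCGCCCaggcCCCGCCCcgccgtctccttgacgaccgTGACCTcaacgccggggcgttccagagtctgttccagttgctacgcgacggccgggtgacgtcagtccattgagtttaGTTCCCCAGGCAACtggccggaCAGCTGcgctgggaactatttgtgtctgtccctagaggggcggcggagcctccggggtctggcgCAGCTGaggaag
Ltbp4: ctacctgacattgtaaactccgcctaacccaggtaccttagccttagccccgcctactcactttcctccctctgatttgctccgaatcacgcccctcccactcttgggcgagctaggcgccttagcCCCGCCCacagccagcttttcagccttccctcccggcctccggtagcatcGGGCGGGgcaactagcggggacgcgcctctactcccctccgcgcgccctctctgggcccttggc
Cdc42ep1: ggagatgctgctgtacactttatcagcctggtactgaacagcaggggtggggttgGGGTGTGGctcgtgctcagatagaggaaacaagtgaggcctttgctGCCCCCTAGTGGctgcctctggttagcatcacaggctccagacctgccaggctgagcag
The Kdm6b peak lies at chr11:69417581-69417800 and held no match. The Id2 peak, at chr12:25098781-25099040, held the E-box CAGCTG in GC-rich DNA. The Ptma peak, at chr1:86525281-86525520, held a CTCF match. The Tex44 peak, at chr1:86434461-86434680, held the SP/KLF motif GGGCGGG, the nuclear receptor motif AGGTCA, an RFX match and the E-box. The Ltbp4 peak, at chr7:27330881-27331120, held 2 matches to GGGCGGG. The Cdc42ep1 peak, at chr15:78851881-78852040, held the KLF motif CCACACCC and a CTCF match.

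The next 3 sequences are tRNA genes that lie under cluster peaks, read 5′ to 3′ along each gene, with the match to a B box consensus in capitals. These genes and the B box were chosen after the values were seen.
n-TSgct3: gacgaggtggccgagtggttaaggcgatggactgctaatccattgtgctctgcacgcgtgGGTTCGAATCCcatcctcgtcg
n-THgtg3: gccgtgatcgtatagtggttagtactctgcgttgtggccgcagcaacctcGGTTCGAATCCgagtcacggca
n-TVtac2: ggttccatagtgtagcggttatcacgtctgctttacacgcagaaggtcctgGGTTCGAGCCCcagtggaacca
The gene n-TSgct3 is a tRNA-Ser gene on the minus strand at chr11:69063042-69063123, in the cluster nearest Borcs6. The gene n-THgtg3 is a tRNA-His gene on the minus strand at chr2:122377363-122377434, in the cluster nearest Shf. The gene n-TVtac2 is a tRNA-Val gene on the plus strand at chr19:12012266-12012338, in the cluster nearest Olfr1423.

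Most clusters were at the lower limit of the rule. Of the 196, 127 had 5 peaks, 44 had 6 and 9 had 7, and 16 had 8 or more, with a maximum of 13. Their spans had a median of 9.11 kb and ranged between 1.5 and 21.5 kb. Together they covered 1835 kb, of which 265.0 kb was peak. The median of the clusters' median gaps was 1551 bp. Just inside the rule, the 5-peak clusters nearest Cdc42ep2, Srsf10 and Sh3pxd2b had largest gaps of 5000, 4960 and 4960 bp. Just outside it were 364 chains of 4 peaks, such as those nearest Arid1b, Zdhhc18 and Nccrp1, which spanned 1239, 1263 and 1300 bp. The shared distal peak closest to any cluster was 5012 bp away. Counts moved with the rule: gaps of at most 3 kb left 80 clusters, and gaps of at most 10 kb gave 579. The peaks of replicate 2 alone, without the sharing step, gave 301 clusters, and those of replicate 1 alone gave 597.

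**Figure D1:**
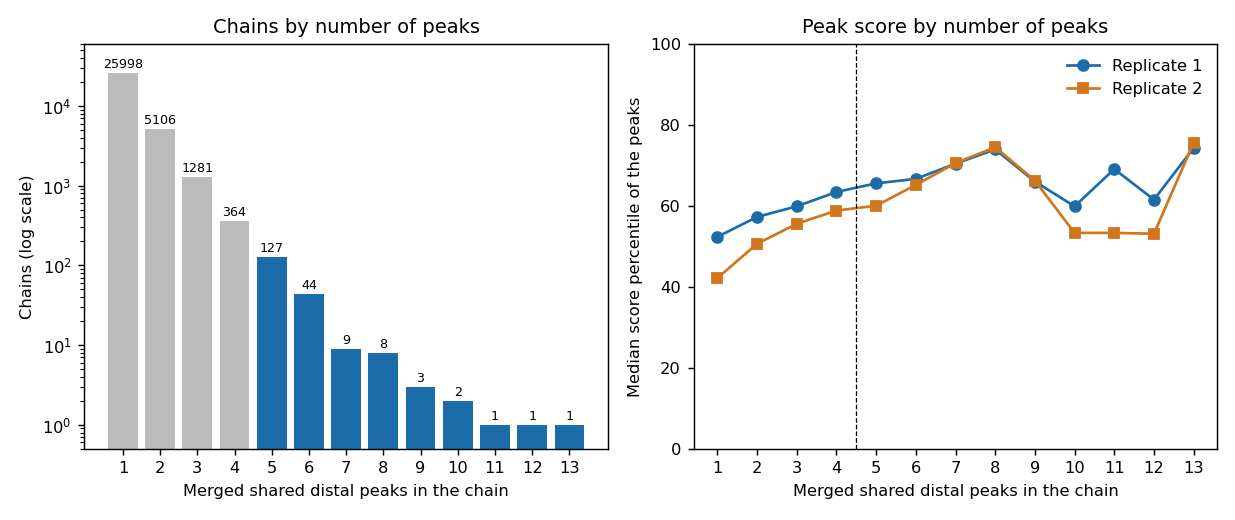
Left, number of chains (log scale) by the number of merged shared distal peaks they hold, with dense clusters in blue. Right, median score percentile of the peaks in each library, where the dashed line marks the lower limit of 5 peaks and the points at 11, 12 and 13 peaks are 1 chain each; the percentiles were higher in chains of 2, 3, 4 and 5 peaks than at lone peaks.

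Cluster peaks were stronger than the other shared distal peaks in both libraries. Strength is given as the percentile of a peak's deposited score among all peaks of its library. In replicate 1 the median percentile was 66.6 in clusters, 58.6 in chains of 2 to 4 and 52.4 for lone peaks, and in replicate 2 it was 62.9, 52.7 and 42.2. The means of these medians were 64.7 ± 2.66 in clusters, 55.6 ± 4.20 in chains of 2 to 4 and 47.3 ± 7.19 for lone peaks (SD, n = 2 libraries). The order of the 3 classes was the same in each library. Of the cluster peaks, 81 (7.30%, exact binomial 95% interval 5.84 to 9.0%) reached a percentile of 90 in both libraries. The share was 2.50% in chains of 2 to 4 and 1.17% for lone peaks, against 1.81% of all shared distal peaks. These binomial intervals cover counting only, since peaks of a cluster are neighbours and are not independent.

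Strength was spread unevenly within a cluster. The gap between the highest and the lowest percentile of a cluster had a median of 40.5 points in replicate 1 and 42.4 in replicate 2. The strongest peak carried a median of 36.1% of the summed score in replicate 1 and 34.2% in replicate 2. It was the same peak in both libraries in 161 clusters. A peak that reached percentile 90 in both libraries was present in 57 clusters and absent in 139. In 44 clusters every peak was at or above percentile 50 in both libraries.

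**Figure D2:**
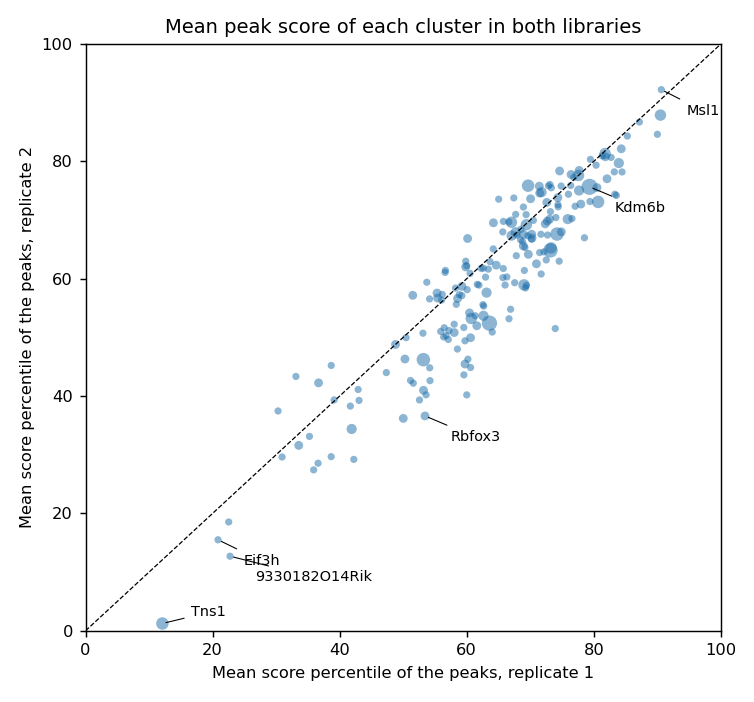
Mean score percentile of the peaks of each of the 196 clusters in replicate 1 (x) and replicate 2 (y), with point size growing with the number of peaks and a dashed line at equal values. The clusters range between 12.1 and 90.6 in replicate 1 and between 1.24 and 92.2 in replicate 2, with the Tns1 cluster lowest in both.

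The mean percentiles of the clusters in the 2 libraries had a Pearson correlation of 0.93 and a Spearman correlation of 0.91 over the 196 clusters, given as a description because both libraries took part in choosing the peaks. The cluster with the highest mean lay 6376 bp upstream of Msl1, which encodes a subunit of a histone acetyltransferase complex. Its 5 peaks had scores of 7.90, 3.10, 11, 13.8 and 5.24 in replicate 1. In replicate 2 the Msl1 peaks had 10.6, 4.26, 10.5, 13.6 and 6.23. The fourth peak was the strongest in both libraries, and the mean percentile was 90.6 in replicate 1 and 92.2 in replicate 2.

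Of the 5 clusters with 10 or more peaks, those nearest Kdm6b, Tnrc18, Zfp503 and Id2 spanned the 5′ end of that gene, while the Olfr1423 cluster lay between protein-coding genes. The cluster of 13 peaks spanned the 5′ end of Kdm6b, a histone H3 lysine demethylase induced by differentiation and inflammatory signals, over 11.9 kb at chr11:69408581-69420500. Its scores ranged between 1.54 and 13.6 in replicate 1 and between 1.21 and 11.3 in replicate 2. Peaks 5 and 9 were strongest in both libraries, with scores of 11.9 and 13.6 in replicate 1 and 11 and 11.3 in replicate 2. All 13 peaks were within 1 kb of a transcript 5′ end in the RefSeq annotation, although not in the GENCODE annotation that defined distal peaks. Without peaks within 1 kb of a RefSeq 5′ end, an alternative added after seeing the data, the rule gave 160 clusters, and the largest was the Id2 cluster with 10 peaks.

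The Tnrc18 cluster had 12 peaks over 10.5 kb across the 5′ end of a gene for a reader of histone methylation. Its mean percentile was 63.6 in replicate 1 and 52.4 in replicate 2. The Zfp503 cluster had 11 peaks over 14.2 kb across the gene of a developmental zinc-finger corepressor. Peak 7 of the Zfp503 cluster was the strongest in both libraries, with scores of 12 in replicate 1 and 16.4 in replicate 2. The Id2 cluster, at chr12:25092341-25101747, had 10 peaks across the gene of an inhibitor of basic helix-loop-helix factors that marks the distal tip of the developing lung epithelium. The fourth peak, printed above, had scores of 8.25 in replicate 1 and 9.92 in replicate 2, and the first had 6.22 and 5.31. The other 8 Id2 peaks scored at most 1.59 in replicate 1 and 1.49 in replicate 2, so the distal peaks of the Id2 cluster were a pair of strong sites and a row of weak ones. Its span also held 4 peaks within 1 kb of a transcript 5′ end in replicate 1 and 2 in replicate 2, which the rule left out. Such peaks lay in the spans of 26 clusters in replicate 1 and 26 in replicate 2.

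Spacing varied among the clusters of 8 or 9 peaks, with median gaps between 210 bp in the Tns1 cluster and 3100 bp in the Cdc42ep1 cluster. The Krt78 cluster, 12.6 kb upstream of a keratin gene, spread 9 peaks over 21.5 kb, the longest span, with gaps with a median of 2880 bp. Peaks 3, 5 and 8 of the Krt78 cluster scored 12.8, 9.29 and 8.61 in replicate 1 and 8.31, 7.73 and 7.87 in replicate 2, above the other 6 peaks in both libraries. The cluster whose nearest 5′ end is that of Tex2 lay over the body of Pecam1, which encodes an adhesion molecule of endothelial cells, with 9 peaks over 20.2 kb. Its first, seventh and ninth peaks were strongest, with Tex2 cluster scores of 5.56, 5.13 and 7.91 in replicate 1 and 6.99, 5.71 and 8.38 in replicate 2.

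**Figure D3:**
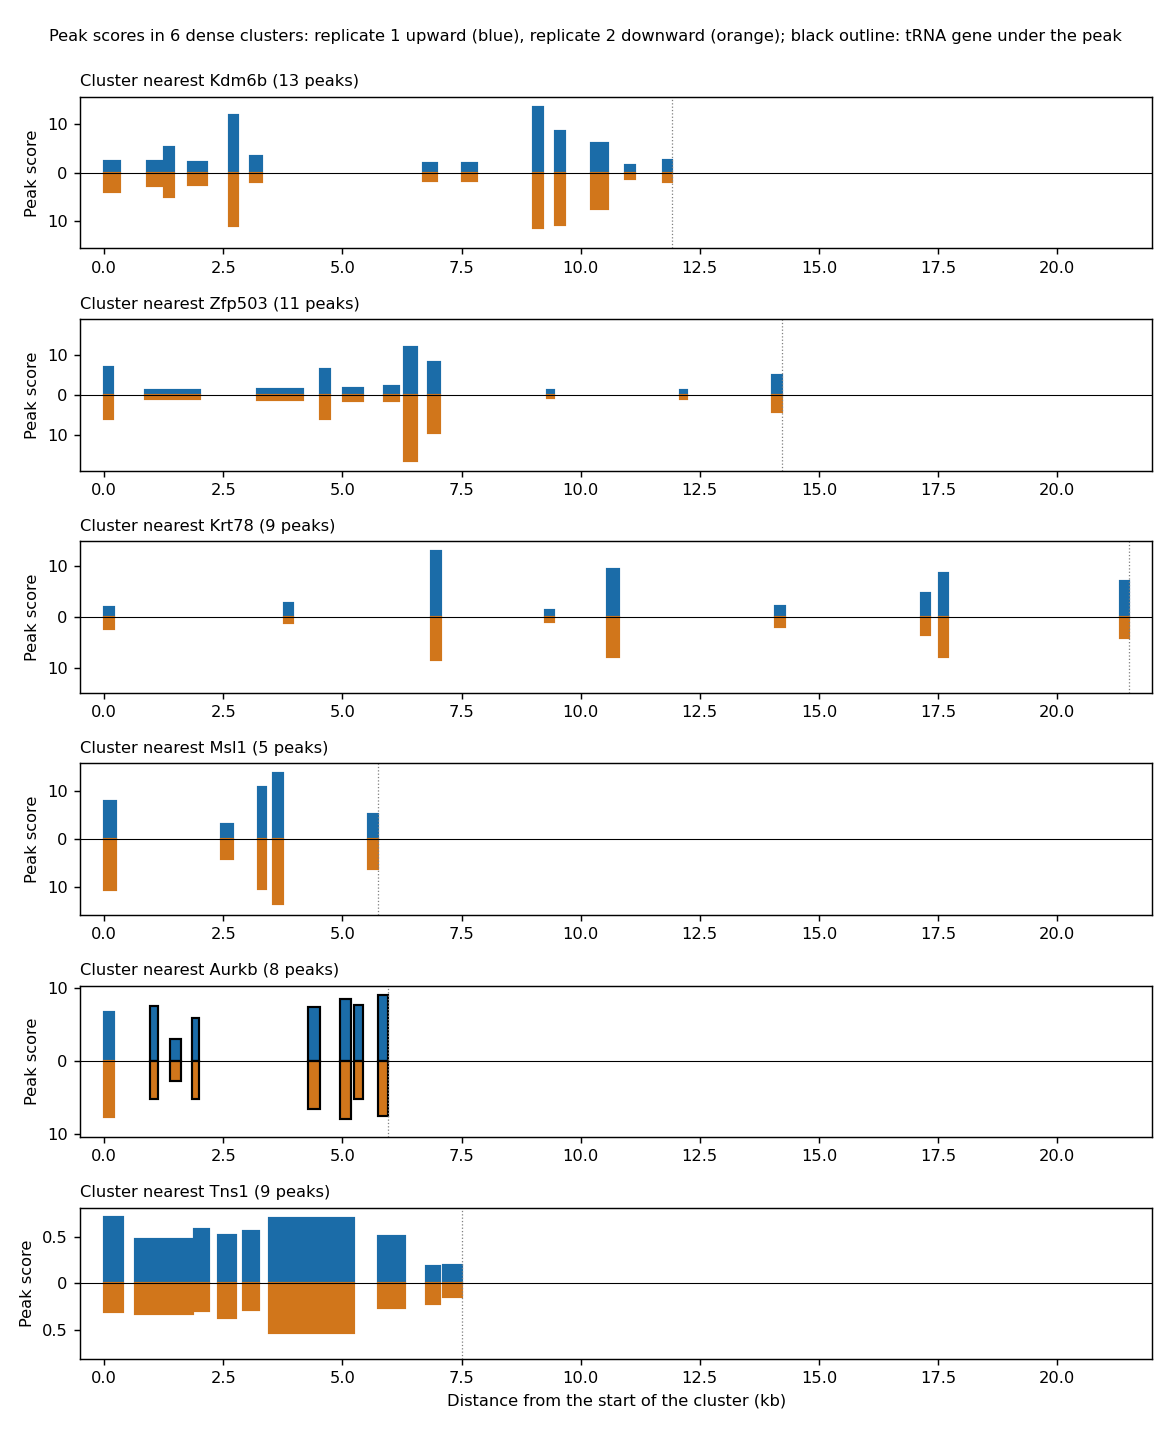
Peaks of 6 clusters by distance from the start of the cluster (kb), with the deposited score upward for replicate 1 and downward for replicate 2; bar width is peak width, the dotted line is the end of the cluster, a black outline marks a tRNA gene under the peak, and the score axes differ between panels. Tall and low peaks alternate alike in both libraries in the Kdm6b, Zfp503, Krt78 and Msl1 clusters, 7 of 8 Aurkb peaks lie over tRNA genes, and all Tns1 peaks score at most 0.707.

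Examples of clusters near genes known to respond to signals or stress follow. They were chosen after their values were seen, and no list of such genes was counted. The Fos cluster had 5 peaks 12.1 kb beyond the 5′ end, with a mean percentile of 79.4 in replicate 1 and 73.2 in replicate 2. Fos and Junb encode subunits of the AP-1 transcription factor. The Junb cluster had 6 peaks that began 1223 bp upstream, with means of 74.9 and 68.0. The Ier2 cluster, beside an immediate-early gene on the same chromosome, had 6 peaks over 6.14 kb and means of 77.7 and 78.5. The Btg2 cluster, beside a gene for an inhibitor of proliferation, had 5 peaks over 10.9 kb with means of 73.3 and 75.5. The Socs3 cluster, near the gene of a feedback inhibitor of cytokine signalling, had 5 peaks with means of 74.0 and 70.4. The Ddit4 cluster, upstream of a stress-induced inhibitor of growth signalling, had 8 peaks with means of 67.0 and 69.6. In each of these pairs replicate 1 is first. Over all clusters the mean percentile had a median of 65.9 in replicate 1 and 61.9 in replicate 2, with quartiles of 57.2 and 73.1 in replicate 1 and of 51.1 and 71.1 in replicate 2. Every example was above both medians. Other clusters were below both, such as those nearest Cited2 (39.1 in replicate 1 and 39.3 in replicate 2), Rhob (58.0 and 50.8) and Tlr5 (60.6 and 44.9). The examples therefore do not tell how strong clusters near such genes are as a set.

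Some genes of vessels and connective tissue were nearest to a cluster. The Cdh5 cluster, 1645 bp upstream of the gene for the cadherin of endothelial junctions, had 5 peaks over 8.36 kb. The Cdh5 peaks scored 1.08, 1.32, 1.53, 2.28 and 3.71 in replicate 1 and 1.09, 1.66, 1.2, 2.41 and 3.42 in replicate 2, and the peak nearest the gene was the strongest in both. The Egfl7 cluster, upstream of a gene for a factor secreted by endothelial cells and named after its values were seen, had 6 peaks with mean percentiles of 71.4 in replicate 1 and 75.8 in replicate 2. The Ltbp4 cluster, in a gene for a matrix protein needed for elastic fibres and lung septation, had the most footprints per kb of peak as a mean of the libraries, with 23.0 in replicate 1 and 17.5 in replicate 2. In replicate 2 the Gm11444 cluster was highest, with 20.7. The Col1a1 cluster lay 62.9 kb upstream of the gene for a fibrillar collagen chain, and the second of its 5 peaks was strongest, at 5.91 in replicate 1 and 3.28 in replicate 2.

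Few cell type markers were nearest to a cluster, but their share was above that of all autosomal protein-coding genes. Of 20780 autosomal protein-coding genes, 192 (0.924%) were nearest to a cluster, and of 220 listed marker genes 7 were (3.18%). Among them were Emp2 of 15 alveolar type 1 genes, Id2 of 16 epithelial regulators, Cdh5 of 22 endothelial genes, Col1a1 of 20 mesenchymal genes and Rbfox3 of 14 neuronal genes. No gene of the alveolar type 2, secretory, ciliated, smooth muscle, mesothelial, myeloid, lymphoid, cardiac muscle or hepatocyte lists was among them. The lists were used as a check of the tissue too: a peak lay within 1 kb of a 5′ end of 13 of 14 alveolar type 2, 15 of 15 alveolar type 1 and 21 of 22 endothelial genes in replicate 1. In replicate 2 it did so for 12, 13 and 20 of these genes. Of 12 secretory genes 6 did in replicate 1 and 7 in replicate 2, of 14 neuronal genes 11 and 9, and of 15 hepatocyte genes 2 and 2. Over all autosomal protein-coding genes the share was 68.1% in replicate 1 and 65.5% in replicate 2. The neuronal list was thus not below the background in replicate 1, and the secretory list was below it in both libraries. The myeloid, lymphoid, mesothelial and cardiac muscle lists were also below it in both. In replicate 1 they reached 47.1%, 40%, 60% and 38.5%. In replicate 2 they reached 35.3%, 46.7%, 40% and 38.5%. The epithelial regulators and the ciliated, mesenchymal and smooth muscle lists were above it in both. In bulk tissue, fewer cells of a type and less access per cell cannot be told apart. Rbfox3 encodes a neuronal splicing factor, and its cluster was weaker than most, with mean percentiles of 53.4 in replicate 1 and 36.6 in replicate 2.

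Position differed between cluster peaks and lone peaks. Of cluster peaks, 59.8% lay between protein-coding genes and 34.3% in introns, against 49.7% and 45.3% of lone peaks. The median distance to a protein-coding 5′ end was 18.7 kb in clusters, 33.3 kb in chains of 2 to 4 and 39.0 kb for lone peaks. Of the 196 clusters, 90 lay wholly between protein-coding genes, 50 inside the body of a gene, 36 across a 5′ end and 20 partly in a gene body. Peaks within 1 kb of a RefSeq transcript 5′ end made up 9.47% of cluster peaks (105 peaks in 47 clusters), 5.69% in chains of 2 to 4 and 3.94% of lone peaks, against 4.72% of all shared distal peaks. Functional elements listed by RefSeq were under 13 cluster peaks (1.17%) in 7 clusters, against 0.643% of all shared distal peaks. Chromosome 11 held 36 clusters with 6.47% of its shared distal peaks. Chromosome 18 held 2, with 0.741%.

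In 10 clusters at least 1 peak lay over a tRNA gene, and in 8 of the 10 at least 3 peaks did. Of cluster peaks, 39 (3.52%, exact binomial 95% interval 2.51 to 4.78%) overlapped a RefSeq tRNA gene, against 0.490% in chains of 2 to 4 and 0.0769% of lone peaks. The share over all shared distal peaks was 0.317%. The GENCODE annotation used to define distal peaks holds 0 tRNA transcripts on the autosomes, so the rule did not remove these peaks. The spans of the clusters held 44 tRNA genes, 41 of them under a cluster peak, and 138 of the 386 autosomal tRNA genes were under any shared distal peak.

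In the Aurkb cluster, 7 of the 8 peaks lay over genes for tRNAs of isoleucine, serine, threonine, proline, aspartate, glycine and tryptophan. Scores of the Aurkb peaks ranged between 3.01 and 9.03 in replicate 1 and between 2.72 and 7.95 in replicate 2, and the mean percentile was 90.5 in replicate 1 and 87.9 in replicate 2. A second tRNA cluster, nearest Borcs6, began 20361 bp further along chromosome 11. Borcs6 peak 3, over n-TSgct3, scored 15.9 in replicate 1 and 13.1 in replicate 2. In the Shf cluster 3 of 6 peaks lay over tRNA-His genes of the same sequence as n-THgtg3, yet the peak over n-THgtg5 scored 2.63 in replicate 1 and 3.23 in replicate 2, against 12.7 and 14.0 at n-THgtg3. The lowest of the 41 was n-TKctt28 in the Trim27 cluster, at 0.686 in replicate 1 and 0.627 in replicate 2. Over the 41 tRNA genes the percentile of the overlying peak had a median of 87.6 in replicate 1 and 83.0 in replicate 2.

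The tRNA clusters differed from the others in composition. Their 68 peaks had a mean GC content of 50.95% and 42.9 CpG per kb, against 55.5% and 25.6 for the 1041 peaks of the other clusters. The median gap between peaks was 358 bp, against 1578 bp. The B box consensus occurred in 29 cluster peaks (2.61%), against 0.246% of all shared distal peaks, and 31 of the 41 tRNA genes held it. Repeated sequence was also concentrated there: of 16 cluster peaks whose central 32 bases occur more than once in the genome (1.44% of cluster peaks, against 1.09% of all shared distal peaks), 11 were in tRNA clusters. The part of repeated sequence in these scores was not tested. Without tRNA peaks, an alternative added after seeing the data, the rule gave 187 clusters.

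Over all clusters, composition differed from that of lone peaks. Mean GC content was 55.2% in cluster peaks, 52.9% in chains of 2 to 4 and 51.2% in lone peaks (SD over peaks 6.06, 5.97 and 5.89). The SP/KLF motif GGGCGGG, on either strand and within 75 bases of the peak centre, occurred in 9.56% of cluster peaks (exact binomial 95% interval 7.89 to 11.4%), 5.94% of peaks in chains of 2 to 4 and 3.70% of lone peaks, against 4.67% of all shared distal peaks. In clusters of 8 or more peaks the share was 14.3% (21 of 147 peaks). The Kdm6b cluster, whose 13 peaks all lay within 1 kb of a RefSeq 5′ end, held 5 of these 21. Of the 147 peaks, 29 (19.7%) lay that near to a RefSeq 5′ end, against 9.47% of all cluster peaks. The part of such peaks in the SP/KLF share was not tested. The CTCF consensus had the opposite order, with 11.3% of cluster peaks (9.47 to 13.3%), 15.1% in chains of 2 to 4 and 18.1% of lone peaks, against 16.8% overall. At the outermost peaks of clusters it was 11.7% and at inner peaks 11.02%, with overlapping intervals, and 108 clusters had no match. GC content moved with the SP/KLF share, and its part in that share was not tested.

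In percentage points, the other motifs differed less between clusters and lone peaks than SP/KLF and CTCF did. The KLF motif CCACACCC was found in 3.25% of cluster peaks (2.28 to 4.47%), against 1.96% of lone peaks and 2.18% of all shared distal peaks. In clusters of 8 or more peaks it was found in 1 of 147 peaks (0.680%). The AP-1 motif TGANTCA was found in 6.04% (4.71 to 7.61%), against 6.82% of lone peaks and 6.7% overall. For the ETS motif AGGAAGT the share was 6.76% (5.36 to 8.40%), against 7.02% of lone peaks and 7.19% overall. For the FOX motif TGTTTAC it was 3.43% (2.44 to 4.67%), against 3.19% of lone peaks and 3.28% overall. For these last 3 motifs, the intervals of the cluster peaks include the share of the lone peaks. For the other 14 motifs the intervals of the cluster peaks included the share of all shared distal peaks. TEAD sites (CATTCCA) were in 3.16% of cluster peaks against 3.99% of all shared distal peaks, RUNX sites (TGTGGTT) in 2.89% against 3.5%, SOX sites (ACAATGG) in 2.80% against 2.23% and GATA sites (AGATAAG) in 1.80% against 1.75%. STAT sites (TTCCNNGAA) were in 3.61% against 2.97%, sites of the NKX2 family (CACTNNAG), which holds a main regulator of lung epithelium, in 12.3% against 13.6%, AGGTCA in 10.5% against 10.6% and the E-box CAGCTG in 17.9% against 18.9%. Matches for MEF2, IRF and the glucocorticoid receptor were in 1.98%, 1.08% and 1.17% of cluster peaks against 2.08%, 1.59% and 0.821% of all shared distal peaks. The glucocorticoid receptor share of lone peaks was 0.692%. Matches for NFI, RFX and CEBP were rare, in 3, 2 and 1 cluster peaks, and were in 0.199%, 0.16% and 0.174% of all shared distal peaks. At least 1 of the 20 motifs was present in 65.9% of cluster peaks. Motifs can overlap, and a match describes the letters, not a bound site.

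**Figure D4:**
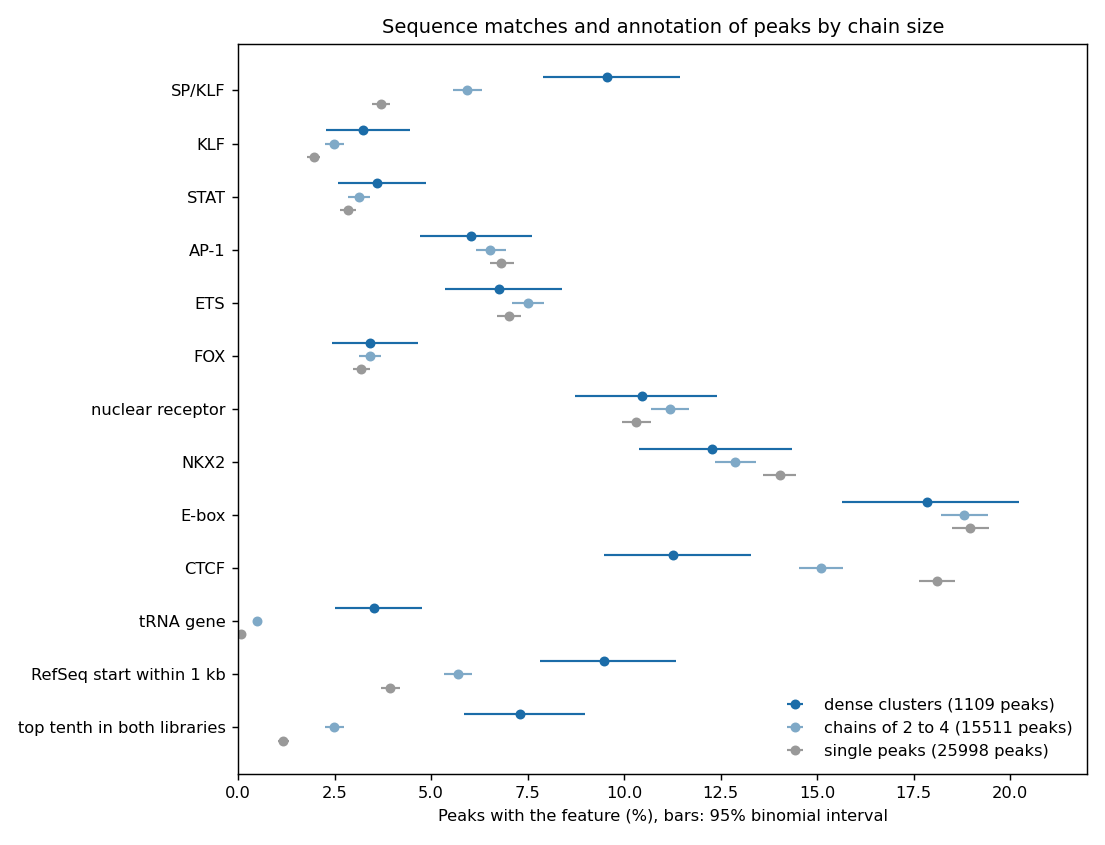
Share of peaks (%) with each sequence match or annotation, for dense clusters, chains of 2 to 4 and lone peaks, with exact binomial 95% intervals. The SP/KLF share is 9.56% in clusters and 3.70% at lone peaks, the CTCF share is 11.3% and 18.1%, and the tRNA gene share is 3.52% and 0.0769%.

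Footprints were about as dense in clusters as elsewhere. Per kb of peak there were 13.0 in clusters, 13.4 in chains of 2 to 4 and 13.8 in lone peaks in replicate 1, and 12.1, 12.2 and 12.1 in replicate 2. The means were 12.5 ± 0.670 in clusters and 12.9 ± 1.22 in lone peaks (SD, n = 2 libraries), a difference smaller than the spread between libraries. A footprint was present in 93.3% of cluster peaks in replicate 1 and 93.1% in replicate 2, against 97.1% and 93.6% of lone peaks. Pooled over the peaks of the 16 clusters of 8 or more peaks, there were 11.6 per kb in replicate 1 and 10.5 in replicate 2. The clusters in this pool differed. The Tns1 cluster, with 5669 bp of peak, had 6.35 and 3.00 per kb in the same order. The Id2 cluster, with 2764 bp of peak, had 5.07 and 6.51. In contrast, the Kdm6b cluster had 13.7 and 14.5 and the Krt78 cluster 21.1 and 18.2. The part of single clusters in the pooled value was not tested.

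DNA between the peaks of a cluster held a larger share of bases listed by the authors as significantly cleaved than the DNA beside it. The listed bases and the peaks come from the same libraries. Listed bases made up 99.58% of the peak bases in the cluster spans in replicate 1 and 96.97% in replicate 2. Clusters were chosen for dense peaks, and no shared distal peak lay within 5 kb of their ends. The comparison with the flanks is therefore a description, and the part of this choice in it was not tested. Only peaks of the peak list with fewer lines, from both libraries, were set aside. In the cluster spans the larger peak list held 154 further peaks in replicate 1 and 157 in replicate 2. Outside the peaks set aside, bases in the authors' list of significant cleavage (limit of the false discovery rate 0.05) made up 14.2% of cluster gaps in replicate 1 and 11.6% in replicate 2, or 12.9 ± 1.82% (SD, n = 2 libraries). In the 20 kb on each side they made up 3.21% and 2.46%, or 2.84 ± 0.532%. The ratio was 4.41 in replicate 1 and 4.71 in replicate 2, and the gaps exceeded the flanks in 189 of 196 clusters in both libraries. The gap share had a Spearman correlation with the median gap of -0.65 in replicate 1 and -0.70 in replicate 2 over the 196 clusters, as a description. Gaps of like length were also compared: for gaps over 2 kb the share was 8.68% in clusters against 6.18% in chains of 2 to 4 in replicate 1, and 6.99% against 5.04% in replicate 2. For gaps of up to 500 bp it was 76.0% against 64.3% in replicate 1, and 68.3% against 59.2% in replicate 2. The cluster value was the higher one in both libraries in all 4 length classes. In the 10 clusters with a tRNA peak, whose gaps were shorter, the median gap share was 30.8% in replicate 1, against 11.5% in the other 186 clusters. In replicate 2 the median was 20.96% in the tRNA clusters and 9.84% in the others.

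**Figure D5:**
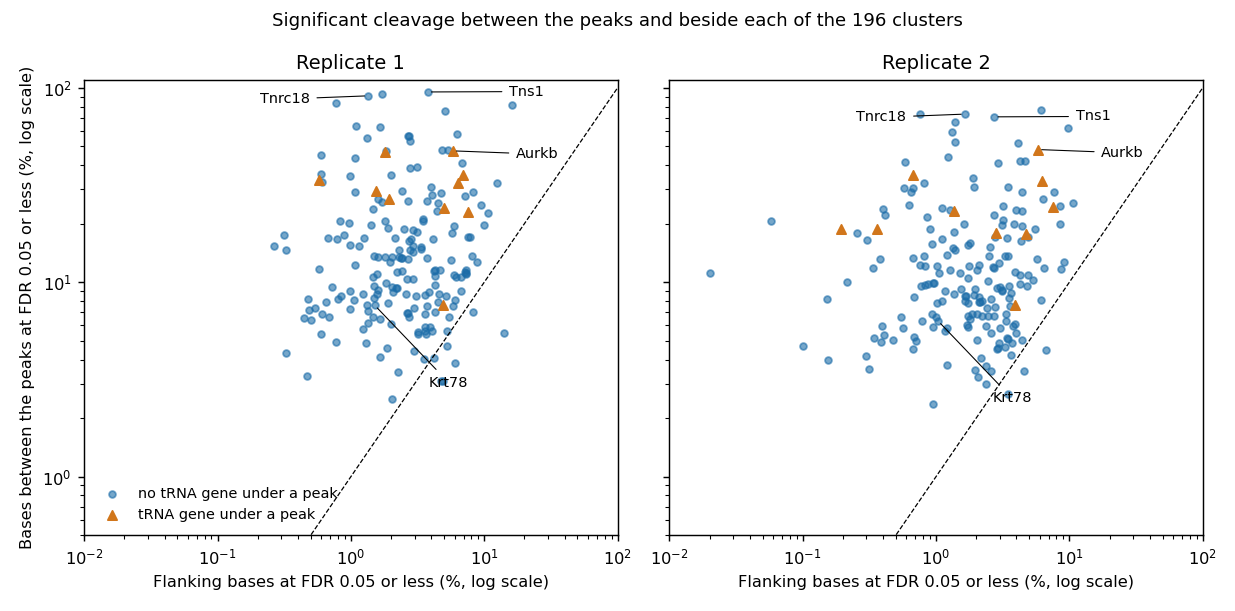
For each of the 196 clusters and each library, the share of bases between the peaks (y, log scale) and in the 20 kb on each side (x, log scale) in the authors' list of significant cleavage. Peaks of the peak list with fewer lines, from both libraries, were set aside. In 189 clusters the points lie above the dashed line of equal shares in both libraries, and the clusters with a tRNA gene under a peak (triangles) have a median share between the peaks of 30.8% in replicate 1 and 20.96% in replicate 2.

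In 9 clusters the bases listed between the peaks passed 50% in both libraries, while in 69 they were below 10% in both. The 9 were nearest Tns1, Cirbp, Hspa4, Id2, 9330182O14Rik, Wnt7b, Tchh, Tnrc18 and Gsg1. The Tns1 cluster had the highest share in replicate 1, with 95.2% in replicate 1 and 70.9% in replicate 2. It lies at chr1:73909561-73917073 over the 3′ end of the gene for tensin 1, a focal adhesion protein, 207376 bp from its 5′ end. The 9 Tns1 peaks were wide and weak: scores ranged between 0.184 and 0.707 in replicate 1 and between 0.143 and 0.539 in replicate 2, and the sixth was 1780 bp wide. The mean percentile of the Tns1 peaks was 12.1 in replicate 1 and 1.24 in replicate 2, the lowest of all clusters, and footprints numbered 6.35 and 3.00 per kb. The Tnrc18 cluster, in contrast, joined 90.9% and 73.2% of listed bases between its peaks with peaks that scored up to 6.33 in replicate 1 and 5.97 in replicate 2. The Krt78 cluster, whose peaks lay further apart, had 7.60% and 6.31% between its peaks. In all cluster gaps over 2 kb the share was 8.68% in replicate 1 and 6.99% in replicate 2. The part of gap length in the contrast between these clusters was not tested.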

How the data were processed

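DNase-seq of lung was deposited as 2 libraries of 1 group. Per the labels, the authors used the mm10 assembly; each library has its own peak, footprint and FDR files. Aligner and caller: not given in the sources used here. In the peak files the authors gave a signal value for each peak, called the score, whose scaling is not stated, so scores were ranked within their own library and are not compared between libraries. The deposited FDR files list bases with a p-value column of false discovery rates, used at 0.05 or below, and the deposited footprint files hold the constant p-value 0.01. Read depth is unknown, and exact binomial 95% intervals cover the counting of peaks only.

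The peak list with fewer lines was used, with 94786 peaks in replicate 1 and 77403 in replicate 2, of which 60611 and 48842 were autosomal and distal. The GENCODE M21 annotation and the GRCm38.p6 sequence share mm10 coordinates, and RefSeq gave tRNA genes and further 5′ ends. Chains, overlaps by at least 1 base, motif matches and sequences were computed with pandas 2.3.3, numpy 2.4.6 and scipy 1.17.1 under Python 3.11.15. On simulated data all 1995 chains and 40 planted motifs were recovered. The members, lists and motifs were chosen with earlier results of these data known. No test between groups was run. The members of 1 gene list are not reported here.

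Named clusters were the 20 with the most peaks, the 5 densest, the 5 highest and 3 lowest by mean percentile, the 5 with the most footprints per kb, up to 3 per gene list, and edge cases. The strongest peak was printed for 5 of them and for the second cluster nearest Ptma, which the rule does not name and which was chosen after its values were seen. Clusters were rebuilt with other gaps, sizes, overlaps, 5′ ends, lists and single libraries.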

Additional observations from a re-analysis of the deposited data

How the results depend on the processing

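No paired analysis was possible because there was 1 group and the results come from no test. The main rule gave 196 clusters with 2.60% of the shared distal peaks and 7 listed genes. Gaps of at most 3 kb gave 80 clusters, 1.07% and 3 genes, and gaps of at most 10 kb gave 579, 8.15% and 12. A minimum of 4 peaks gave 560 clusters, 6.02% and 11 genes, and a minimum of 8 gave 16, 0.345% and 1. The larger peak list gave 707, 6.09% and 17, and the higher-scoring 50% of peaks gave 65, 1.99% and 2. Leaving out a library gave 301 to 597 clusters, 3.55% to 5.92% of the peaks and 7 to 14 genes. The median percentile of cluster peaks was 54.4 with replicate 1 alone, against 66.6 in replicate 1 under the main rule. With replicate 2 alone it was 57.3, against 62.9 in replicate 2 under the main rule. Percentiles of lone peaks were not computed for single libraries. With only the outermost 5′ end of each gene there were 327 clusters with 3.93%. An overlap of at least 50% gave 131 clusters and 1.88%, merging of peaks up to 150 bases apart gave 155 and 2.05%, a wider distal limit gave 133 and 1.97%, and chains broken at 5′ ends gave 171 and 2.22%. Leaving out peaks near RefSeq 5′ ends, chosen after seeing the data, gave 160 and 2.19%. Under these 5 settings there were 5 to 7 listed genes. Counted by gene body, 3 listed genes had a cluster. Clusters of 8 or more peaks had a median percentile of 71.4, 11.1 footprints per kb and a motif in 59.9% of peaks. Footprints shared by both libraries numbered 8.05 per kb. A motif was found in 78.5% of whole cluster peaks and 53.7% of narrower windows. The cause of these shifts was not tested. The largest cluster had between 10 and 18 peaks under all alternatives that were run, but it was not always the Kdm6b cluster. It was nearest Tnrc18 with gaps of at most 3 kb and with replicate 2 alone, and nearest Smim24 with replicate 1 alone. With the larger peak list it was nearest Dnajb12, and with only the outermost 5′ ends nearest Plec. With the wider distal limit, and with chains broken at 5′ ends, it was nearest Olfr1423. Without peaks near RefSeq 5′ ends it was nearest Id2. Read depth is unknown, and its part in these counts was not tested.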

Other observations

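Some clusters stood close together. In 10 pairs of neighbouring clusters fewer than 50 kb lay between them, and in 16 fewer than 100 kb. The closest pair had 12801 bp between them, and both were nearest Ptma, which encodes an abundant acidic nuclear protein. The 11 peaks of this pair included the strongest cluster peak of replicate 1, at 23.04 in replicate 1 and 21 in replicate 2. The cluster nearest Tex44 lay 57261 bp before it, and peak 3 of the Tex44 cluster scored 20.02 in replicate 1 and 18.9 in replicate 2.

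The 7 clusters with a functional element of RefSeq under a peak were nearest Btg2, Actg1, Trmt61a, Cbx7, A3galt2, Faap20 and Irf2bp2.

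The cluster nearest 9330182O14Rik was the densest, with 5 peaks in 1.5 kb. Its mean percentile was 22.8 in replicate 1 and 12.7 in replicate 2, and listed bases filled 93.2% and 67.0% of the space between its peaks.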
